A study of Mus musculus with 6 samples.

Results

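The 9 genes Sox9, Sox5, Sox6, Nkx3-2, Trps1, Runx2, Runx3, Mef2c and Foxc1 encode transcription factors that direct the formation and maturation of chondrocytes, the cells of cartilage. They were chosen by name, without a threshold on their values but with earlier results of these data known. They are 9 of the 33971 genes in the table, each with 1 row, and all 9 passed the filter on low counts. They were followed in articular cartilage of wild-type mice aged 2 months (3 libraries) and 18 months (3 libraries). No treatment separated the groups, and the methods describe male mice. The labels do not say whether the libraries of an age came from separate animals, so p-values measure only the spread between these libraries. A bulk library pools every cell of the dissected tissue, so fewer cells of a type and less RNA per cell cannot be told apart.

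Sox9 is the master factor of the cartilage lineage. It binds enhancers of cartilage matrix genes together with Sox5 and Sox6, which lack an activation domain of their own, and these 3 genes are known as the SOX trio. Nkx3-2 and Trps1 are repressors that hold growth plate chondrocytes back from maturing. Runx2, Runx3 and Mef2c drive hypertrophy, the stage at which chondrocytes enlarge, make type X collagen and give way to bone. Foxc1 is a forkhead factor of mesenchymal condensations that cooperates with Gli2 in endochondral bone formation. None of the 9 is read in chondrocytes alone: Runx2 and Mef2c also act in osteoblasts and osteocytes, Runx3 and Mef2c in lymphoid or myeloid cells, and Sox6 in erythroid cells.

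The libraries held 48171507 to 59085179 counts. In the 18-month libraries the summed markers of chondrocytes were lower, and those of erythroid cells and neutrophils were higher. The summed level of 16 chondrocyte markers ranged from 45599 to 70667 CPM (counts scaled by the library total) at 2 months and from 633 to 1689 CPM at 18 months, with Epyc at 0 in every 18-month library. Erythroid markers (11 genes tested) summed to 248 to 6649 CPM at 2 months and 27212 to 35940 CPM at 18 months, and 13 neutrophil markers to 13.0 to 3736 CPM and 41862 to 45011 CPM. In both lists the highest 2-month value was that of replicate 2. By the edgeR test given below, 3 of the 11 erythroid and 0 of the 13 neutrophil markers were called higher. The 2-month libraries held 88239 to 102417 counts of Xist, which is read from the inactive X chromosome, against 11 to 30 at 18 months. Counts of the Y-linked Ddx3y were 0 to 10 at 2 months and 4333 to 4839 at 18 months. By these genes the 2-month libraries go against the methods, and sex and age cannot be told apart in any comparison below.

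Promoter sequence was available for 7 of the 9 genes, in 15 windows of 250 bases before an annotated start (RefSeq, GRCm38.p6). Those of Runx2, Runx3 and Foxc1 are shown because these 3 genes fell by nearly the same factor, and that of Sox5 because it holds a SOX motif. All are printed in the direction of transcription, and capitals mark a RUNX motif (TGTGGT or its reverse complement ACCACA) or a SOX motif (ACAATG or its reverse complement CATTGT).
Runx2, chr17:44814628-44814877, minus strand: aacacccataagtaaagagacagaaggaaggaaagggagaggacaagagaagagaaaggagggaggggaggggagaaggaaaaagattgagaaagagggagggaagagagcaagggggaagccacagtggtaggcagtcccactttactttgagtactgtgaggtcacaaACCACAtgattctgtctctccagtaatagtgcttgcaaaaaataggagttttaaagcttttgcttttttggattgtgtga
Runx3, chr4:135120395-135120644, plus strand: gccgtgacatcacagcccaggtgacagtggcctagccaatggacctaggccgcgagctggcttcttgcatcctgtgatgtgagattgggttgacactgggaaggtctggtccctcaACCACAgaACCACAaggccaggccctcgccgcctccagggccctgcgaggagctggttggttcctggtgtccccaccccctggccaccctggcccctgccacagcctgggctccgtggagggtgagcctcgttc
Foxc1, chr13:31806396-31806645, plus strand: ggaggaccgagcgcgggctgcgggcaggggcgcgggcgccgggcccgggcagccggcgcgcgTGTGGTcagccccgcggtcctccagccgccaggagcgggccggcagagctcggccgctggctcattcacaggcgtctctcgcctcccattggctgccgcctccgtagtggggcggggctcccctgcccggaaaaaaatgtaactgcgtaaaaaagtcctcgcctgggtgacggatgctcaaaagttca
Sox5, chr6:143947107-143947356, minus strand: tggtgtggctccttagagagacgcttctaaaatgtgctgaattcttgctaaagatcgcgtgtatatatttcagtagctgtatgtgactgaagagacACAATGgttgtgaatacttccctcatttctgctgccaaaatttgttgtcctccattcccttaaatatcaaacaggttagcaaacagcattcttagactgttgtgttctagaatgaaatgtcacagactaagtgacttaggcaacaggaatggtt

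The RUNX motif lay 74 bases before the start in Runx2, 128 and 120 bases before it in Runx3, and 182 bases before it in Foxc1. It was also found in 2 of the 6 windows of Sox6, the factor that fell least. Searched on both strands, these letters occur in 14.0% of all 32851 mouse windows of this length. The SOX motif of Sox5 lay 148 bases before the start, and ACAATG occurs in 10.7% of all windows. That start is an internal one, because the window lies within the Sox5 gene, which on the minus strand begins at chr6:144781919. The GC content of the 4 windows was 44.8%, 65.2%, 70.8% and 39.6% in the order printed, against a median of 52.4% over all windows. The other Runx3 window, at chr4:135152295-135152544, held none of these letters and had a GC content of 78.8%. Of the 6 windows of Sox6, 5 held ACAAAG or ACAATG, and ACAAAG occurs in 16.5% of all windows. The GATA motif AGATAA (9.99% of all windows) was found in Sox6 alone of the 7 genes, and the forkhead motif TGTTTAC (3.17%) in none. None of these motifs is contained in another. These matches describe letters and are not binding sites.

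All 9 factors were lower in 18-month than in 2-month cartilage. Each was called lower, where called means a Benjamini-Hochberg adjusted p-value below 0.05 and a log2 fold change beyond 1 in edgeR's quasi-likelihood test. Among all 20397 genes tested, 36.3% were called, 21.3% lower and 14.9% higher. The lowest 2-month library lay above the highest 18-month library for all 9 in FPKM, a level per transcript length and library size, as it did for 32.8% of the genes tested. The median log2 fold change was -2.03 over the 9 factors and -0.02 over all genes tested. The fall ranged from a log2 fold change of -1.001 for Sox6 to -5.16 for Sox9. The summed FPKM of the 9 went from 133 to 155 per library at 2 months to 21.5 to 27.6 at 18 months.

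**Figure D1:**
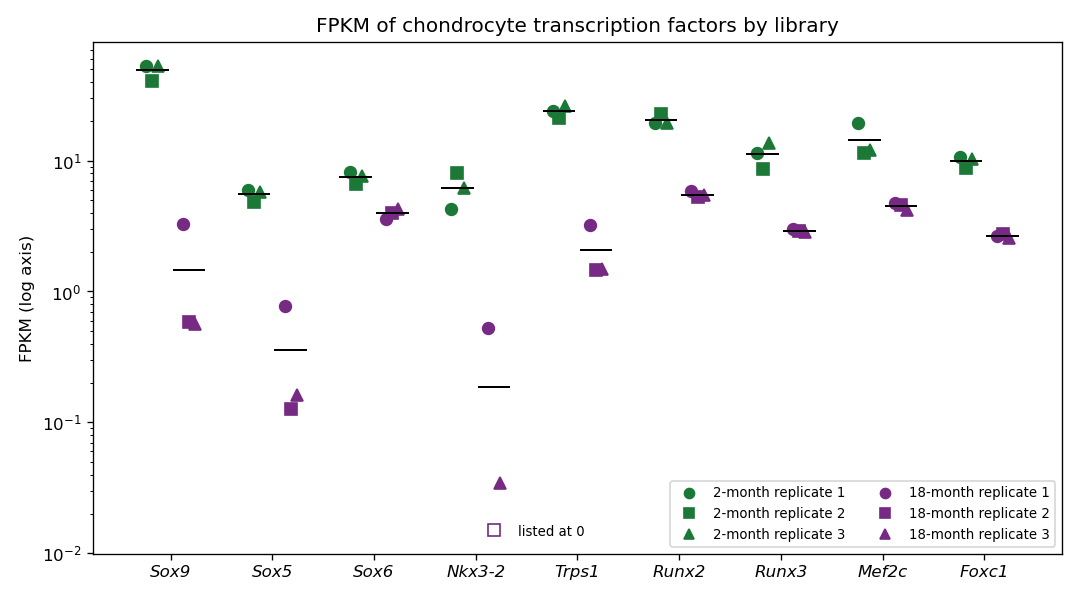
Level of each of the 9 factors in each library, as FPKM, for 2-month and 18-month replicates 1 to 3, on a log axis, with a line at the mean of each age and an open symbol for the Nkx3-2 value listed at 0. The 18-month points lie below the 2-month points for every gene, and 18-month replicate 1 stands above the other two for Sox9, Sox5, Nkx3-2 and Trps1.

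Sox9 (chr11:112782224-112787760, plus strand) was the most abundant of the 9 at 2 months. Its level was 52.5, 40.6 and 53.1 FPKM in the 2-month libraries and 3.25, 0.588 and 0.565 FPKM in the 18-month libraries, replicates 1 to 3 in each case. All 2-month libraries were high, and among the 18-month libraries replicate 1 was well above the others, with 905 counts against 153 and 149. Mean Sox9 went from 48.8 ± 7.05 to 1.47 ± 1.55 FPKM (SD, n = 3), which is 3.01% of the 2-month level. The log2 fold change was -5.16 (SE 0.85, adjusted p = 0.0051), and it was -6.46 without 18-month replicate 1.

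Sox5 (chr6:143828425-144781919, minus strand), a SoxD protein that partners Sox9 on cartilage enhancers, was likewise high at 2 months and low at 18 months. Its level was 5.94, 4.87 and 5.80 FPKM at 2 months and 0.780, 0.128 and 0.162 FPKM at 18 months. The groups did not overlap, and 18-month replicate 1 was again the highest of its age. Mean Sox5 went from 5.54 ± 0.585 to 0.357 ± 0.367 FPKM (SD, n = 3), with a log2 fold change of -4.05 (SE 0.78, adjusted p = 0.0082) and of -5.30 without 18-month replicate 1.

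Sox6 (chr7:115470872-116031047, minus strand), the other SoxD protein and also a repressor of embryonic globin genes in erythroid cells, fell least. Its level was 8.21, 6.58 and 7.63 FPKM at 2 months and 3.60, 3.99 and 4.27 FPKM at 18 months. Here 18-month replicate 1 was the lowest of its age, the reverse of Sox9 and Sox5. Mean Sox6 went from 7.47 ± 0.828 to 3.95 ± 0.333 FPKM (SD, n = 3), or 52.9% of the 2-month level. The log2 fold change of -1.001 (SE 0.16, adjusted p = 0.0046) was at the limit of the call, and its size was under 1 in all 7 other fits with all libraries, from -0.99 to -0.77, with an adjusted p of at most 0.024.

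The make-up of the SOX trio differed between the ages. Sox9 was 78.0% to 79.8% of the summed FPKM of the 3 genes in the 2-month libraries, 42.6% in 18-month replicate 1, and 12.5% and 11.3% in replicates 2 and 3. Sox6 went from 11.5% to 12.6% at 2 months to 47.2%, 84.8% and 85.4% at 18 months, where it was the most abundant of the trio in every library. The log2 ratio of Sox5 to Sox6, both in FPKM, was -0.47, -0.43 and -0.39 at 2 months and -2.21, -4.97 and -4.72 at 18 months. The difference of -3.53 in the log2 ratio is an 11.6-fold lower ratio, with p = 0.1 in a two-sided exact permutation test, the smallest that 3 libraries against 3 allow. Without 18-month replicate 1 the difference was -4.41, and without replicate 2 it was -3.03. Erythroid markers moved the other way from the trio total, and the part of erythroid Sox6 transcripts in these values was not tested.

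**Figure D2:**
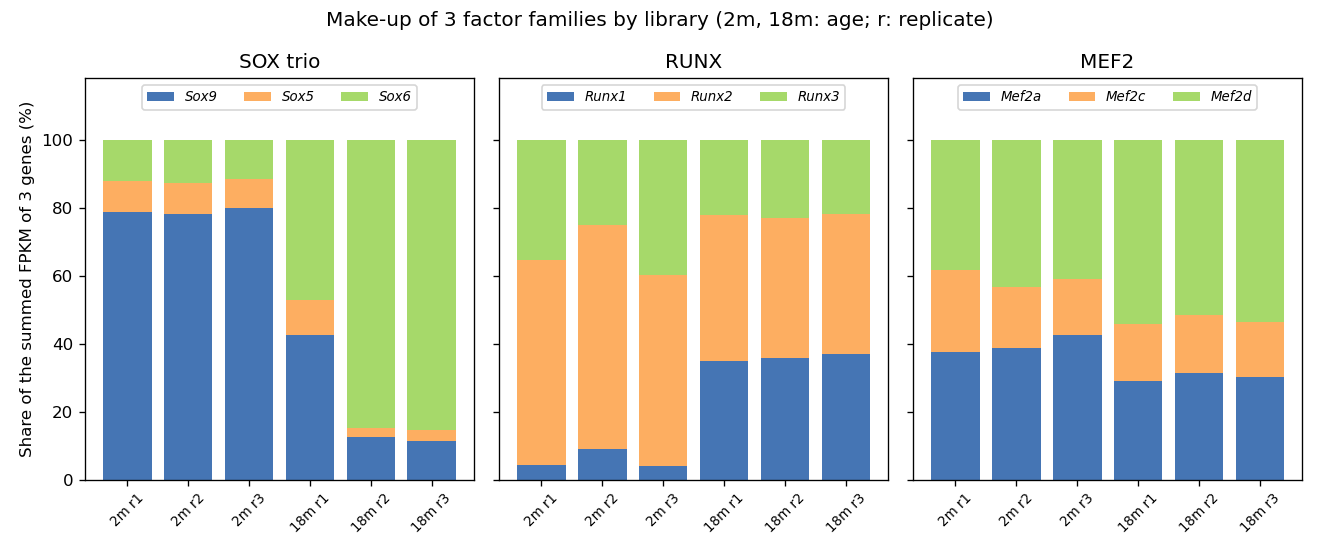
Share of the summed FPKM (%) taken by each gene of the SOX trio, the RUNX genes and 3 MEF2 genes in each of the 6 libraries (2m and 18m, age in months; r, replicate). Sox6 replaces Sox9 as the largest share of the trio at 18 months, and Runx1 takes 34.9% to 36.9% of the RUNX total there.

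Nkx3-2 (chr5:41761483-41764501, minus strand), a homeobox repressor downstream of hedgehog signalling that blocks Runx2 and hypertrophy, had the fewest counts. There were 400, 802 and 596 counts at 2 months and 61, 0 and 4 at 18 months. Nearly all of the 18-month counts were thus in replicate 1, and replicate 2 had none, which allows up to 3 counts. Mean Nkx3-2 went from 6.13 ± 1.87 to 0.187 ± 0.295 FPKM (SD, n = 3), 3.06% of the 2-month level. The log2 fold change was -5.10 with the widest error of the 9 (SE 1.50, adjusted p = 0.033). It was not called without 2-month replicate 3 (adjusted p = 0.075) or without 18-month replicate 3 (adjusted p = 0.10), and it was -8.33 without 18-month replicate 1.

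Trps1 (chr15:50654752-50890463, minus strand), an atypical GATA repressor that acts in the growth plate with parathyroid hormone-related protein signalling, was the second most abundant factor at 2 months. Its level was 23.7, 21.3 and 26.2 FPKM at 2 months and 3.22, 1.46 and 1.49 FPKM at 18 months. As for Sox9, 18-month replicate 1 stood above the others, here by 2.18-fold over their mean. Mean Trps1 went from 23.7 ± 2.48 to 2.06 ± 1.01 FPKM (SD, n = 3), with a log2 fold change of -3.62 (SE 0.37, adjusted p = 0.0016).

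Runx2 (chr17:44495987-44814797, minus strand), the runt factor required for osteoblasts and for chondrocyte hypertrophy, had the smallest standard error of the 9. Its level was 19.2, 22.7 and 19.2 FPKM at 2 months and 5.82, 5.23 and 5.41 FPKM at 18 months. The 18-month libraries were close to each other, and replicate 1 was only 1.09-fold the mean of the others. On average Runx2 went from 20.4 ± 2.01 to 5.49 ± 0.304 FPKM (SD, n = 3), with a log2 fold change of -1.97 (SE 0.10, adjusted p = 0.00071). Runx2 was the most abundant of the 9 at 18 months. The 10 osteoblast and osteocyte markers summed to 5052 to 17508 CPM at 2 months, highest in replicate 2 as for Runx2, and to 3399 to 3593 CPM at 18 months. Of these markers 3 were called lower and 0 higher (median log2 fold change -0.76). The 3 called lower also stand in the list of hypertrophy genes below, and 2 of the 10 markers had a positive log2 fold change. Ibsp (log2 fold change -3.05) was the largest part of the sum in 2-month replicates 1 and 3. In 2-month replicate 2 and at 18 months the largest part was Col1a1, which was not called (log2 fold change -0.82, adjusted p = 0.64). Col1a1 had 10559, 545386 and 22118 counts at 2 months and 125783, 115288 and 119626 at 18 months. The high sum of 2-month replicate 2 is thus largely that of Col1a1. The part of bone cells in the Runx2 level was not tested.

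Runx3 (chr4:135120652-135177990, plus strand), which shares the hypertrophy role with Runx2 and also silences Cd4 in cytotoxic T lymphocytes, fell by nearly the same factor. Its level was 11.3, 8.60 and 13.6 FPKM at 2 months and 3.00, 2.91 and 2.84 FPKM at 18 months. The 2-month libraries were spread, with replicate 2 the lowest, and the 18-month libraries lay close together. On average Runx3 went from 11.2 ± 2.52 to 2.92 ± 0.0810 FPKM (SD, n = 3), with a log2 fold change of -2.03 (SE 0.22, adjusted p = 0.0017). The log2 ratio of Runx3 to Runx2 was -0.89 ± 0.47 at 2 months and -0.91 ± 0.06 at 18 months (SD, n = 3), and the difference of -0.02 lay within the spread of the 2-month libraries (two-sided exact permutation p = 1.0). Markers of T and NK lymphocytes (11 genes) summed to 0.724 to 18.2 CPM at 2 months and 141 to 161 CPM at 18 months, with 6 called higher and 0 lower (median log2 fold change 4.89). The part of lymphocytes in the Runx3 level was not tested.

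Mef2c (chr13:83504034-83667078, plus strand), a MADS-box factor that activates Runx2 and type X collagen in chondrocytes and is also used by B lymphocytes, osteocytes and endothelium, was spread at 2 months. Its level was 19.3, 11.5 and 12.1 FPKM at 2 months, with replicate 1 above the others, and 4.72, 4.59 and 4.17 FPKM at 18 months. On average Mef2c went from 14.3 ± 4.34 to 4.49 ± 0.287 FPKM (SD, n = 3), with a log2 fold change of -1.76 (SE 0.25, adjusted p = 0.0034). The 10 B lymphocyte markers summed to 10.5 to 294 CPM at 2 months and 215 to 260 CPM at 18 months, with 0 called in either direction by edgeR or DESeq2, 0 at an unadjusted p below 0.05 and 2 called higher by limma (median log2 fold change 0.97). The 8 endothelial markers summed to 20.9 to 305 CPM and 349 to 405 CPM, with 2 called higher and 0 lower (median 0.73). The 2 were Stab2 and Vwf, and Vwf had 202, 700 and 281 counts at 2 months and 7941, 8510 and 9126 at 18 months. Cdh5, Kdr, Tek, Emcn and Tie1 had their highest count in 2-month replicate 2, and Pecam1 and Stab2 had theirs at 18 months. The endothelial sum thus does not give the level of each marker. The highest 2-month value of both lists was in replicate 2, that of Mef2c in replicate 1, and the part of these cells in the Mef2c level was not tested.

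Foxc1 (chr13:31806633-31812476, plus strand) was among the steadiest of the 9 within each age. Its level was 10.7, 8.82 and 10.3 FPKM at 2 months and 2.67, 2.76 and 2.55 FPKM at 18 months. On average Foxc1 went from 9.95 ± 0.991 to 2.66 ± 0.108 FPKM (SD, n = 3), or 26.7% of the 2-month level, close to the 26.9% of Runx2 and the 26.1% of Runx3. The log2 fold change was -1.99 (SE 0.14, adjusted p = 0.00090). The 8 markers of synovial and tendon fibroblasts, cells in which Foxc1 is also known, summed to 1209 to 1680 CPM at 2 months and 175 to 240 CPM at 18 months. Most of the 2-month sum was Fmod, with 51846, 77753 and 65839 counts at 2 months and 2005, 712 and 803 at 18 months. The fall of the sum is thus largely that of Fmod and does not give the level of the other markers. Of the 8, 5 were called lower and 2 higher (median log2 fold change -1.40), and 3 had a positive log2 fold change. The part of fibroblasts in the Foxc1 level was not tested.

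**Figure D3:**
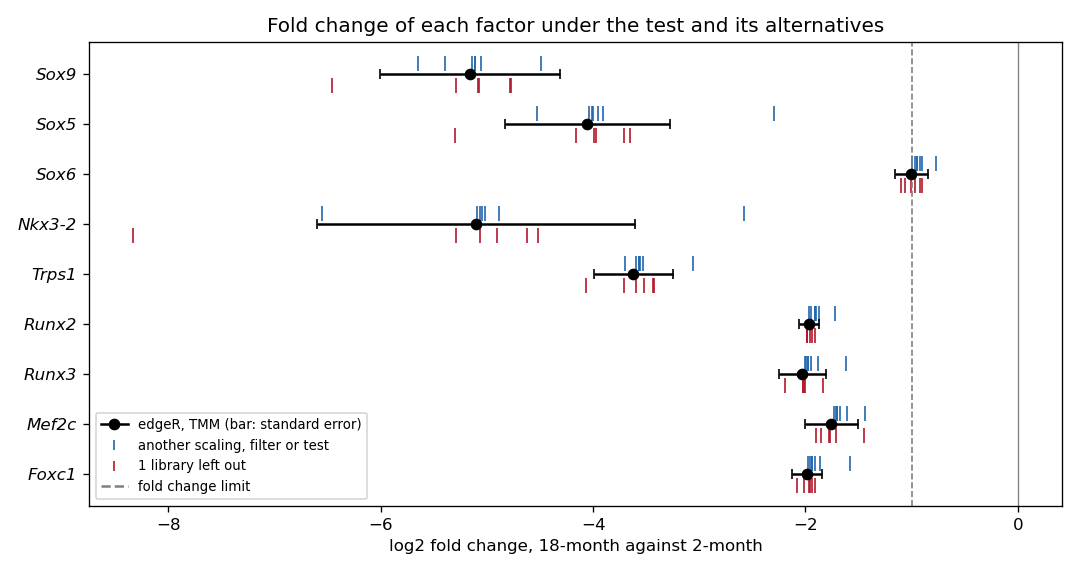
Log2 fold change of each factor, 18-month against 2-month, with points and bars for edgeR's value and standard error over all 6 libraries, blue ticks for another scaling, filter or test, red ticks for 1 library left out, and a dashed line at the fold limit. In the fit of all libraries, Sox9, Nkx3-2, Sox5 and Trps1 lie below -3, and the other 5 lie between -2.03 and -1.001.

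The order of the levels in FPKM changed with age. At 2 months it was Sox9, Trps1, Runx2, Mef2c, Runx3, Foxc1, Sox6, Nkx3-2 and Sox5, from highest to lowest. Only Sox9 against Trps1 and Foxc1 against Sox6 were neighbours whose libraries did not overlap. At 18 months the order was Runx2, Mef2c, Sox6, Runx3, Foxc1, Trps1, Sox9, Sox5 and Nkx3-2, and neighbours did not overlap for Runx2 against Mef2c, Sox6 against Runx3, and Runx3 against Foxc1. Sox9 made up 30.6% to 34.4% of the summed FPKM of the 9 at 2 months and 2.63% to 11.8% at 18 months.

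The factors differed in how far 18-month replicate 1 lay from the other libraries of its age. The level of replicate 1, divided by the mean of replicates 2 and 3, was 30.7 for Nkx3-2, 5.65 for Sox9, 5.38 for Sox5 and 2.18 for Trps1. It lay between 0.873 (Sox6) and 1.09 (Runx2) for the other 5. The summed level of the chondrocyte markers was 2.64-fold higher in replicate 1 than the mean of the others. The part of that library's chondrocyte RNA in these values was not tested. Without it the log2 fold change of Trps1 was -4.06, and those of the other 3 genes are given above.

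Set against the chondrocyte markers of the same library, most of the factors were relatively more abundant at 18 months. Several of the factors are also read in other cells, whose part in this comparison was not tested. The log2 ratio of a factor's CPM to the summed CPM of the 16 markers was higher at 18 months by 5.08 for Sox6, 4.37 for Mef2c, 4.11 for Runx2, 4.10 for Foxc1 and 4.08 for Runx3. It was higher by 2.37 for Trps1 and 1.57 for Sox5. In these 7 the ages did not overlap (two-sided exact permutation p = 0.1 for each, the smallest possible). All 16 markers were called lower, with a median log2 fold change of -6.78, against -0.02 over all genes tested. A gene that fell less than the marker total rises in this ratio by construction. The share of all genes whose ratio did not overlap was not examined, so the 7 are not set apart by it. Sox9 was higher by 0.44 with overlapping libraries (exact p = 0.6). With the summed FPKM of the markers in place of CPM it was higher by 0.74 and the ages did not overlap (exact p = 0.1), and with 1 library left out it ranged from 0.08, without 18-month replicate 1, to 0.65. Nkx3-2 differed by -0.996 with overlapping libraries (exact p = 0.7). With 9 such ratios tested and 0.1 as the smallest p, none could pass a limit of 0.05. A p above the limit does not show that Sox9 and the marker total fell alike.

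**Figure D4:**
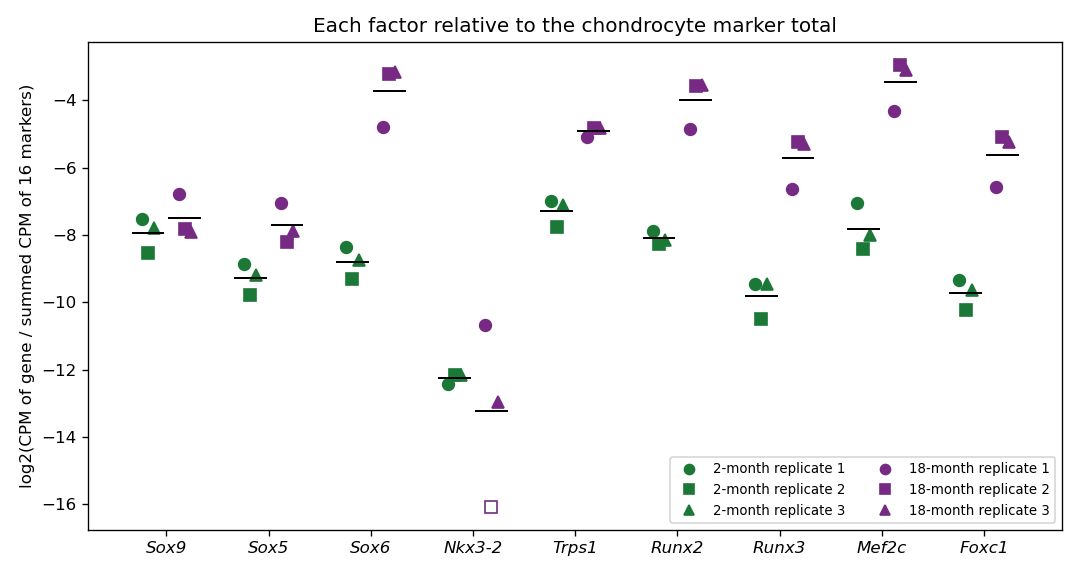
Log2 ratio of the CPM of each factor to the summed CPM of 16 chondrocyte markers in each library, with a line at the mean of each age, 0.5 counts added to the factor's count and an open symbol where that count was 0. The 18-month points lie above the 2-month points for 7 of the 9 factors and overlap them for Sox9 and Nkx3-2 on this scale.

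Relatives of the 9 in the same families did not all fall. Of the 9 relatives tested, 5 were called lower and 1 higher, with a median log2 fold change of -1.04. Over all genes tested, 21.3% were called lower and 14.9% higher. Sox8, a SoxE protein that overlaps with Sox9 in function, went from 11.1 ± 3.73 to 0.440 ± 0.288 FPKM (SD, n = 3; log2 fold change -4.74, adjusted p = 0.0023; -5.38 without 18-month replicate 1). Sox10, the SoxE protein of neural crest and glia, was at 0.228 ± 0.201 FPKM at 2 months and 0.0107 ± 0.0095 at 18 months (SD, n = 3; log2 fold change -4.28, adjusted p = 0.021), and its call was lost in 4 of 13 other fits, among them those without 18-month replicate 1 or 3. Sox13, the third SoxD gene, differed by 0.25 on the log2 scale (adjusted p = 0.43). Foxc2, the closest relative of Foxc1, had a log2 fold change of -1.04 (adjusted p = 0.036), and its call was lost in 10 of 13 other fits.

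Runx1, the RUNX gene of blood stem and progenitor cells that is also read in cartilage, was the relative called higher. It had 924, 2169 and 926 counts at 2 months and 3834, 3438 and 3700 counts at 18 months. Replicate 2 of the 2-month libraries, the one with the highest erythroid and neutrophil marker levels of its age, was the high one. The log2 fold change was 1.22 (adjusted p = 0.020), and the call was lost on leaving out any library but 2-month replicate 2. Runx1 was 3.99% to 8.95% of the RUNX total in FPKM at 2 months and 34.9% to 36.9% at 18 months, while Runx2 went from 56.2% to 66.0% to 41.2% to 42.9%. Cbfb, the shared partner subunit of the RUNX proteins, differed by -0.41 on the log2 scale (adjusted p = 0.026), which is under the fold limit. The part of marrow cells in the Runx1 level was not tested.

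Mef2a and Mef2d, broadly read relatives of Mef2c, fell with it. Their log2 fold changes were -1.89 (adjusted p = 0.0012) and -1.11 (adjusted p = 0.0017), and in limma with 1 added to FPKM Mef2d was at -0.98 and not called. Mef2b, which is low in most tissues outside germinal centre B lymphocytes, differed by 1.60 (adjusted p = 0.16). The Mef2c share of the summed FPKM of Mef2a, Mef2c and Mef2d was 16.7% to 24.2% at 2 months and 16.2% to 17.1% at 18 months, so the ages overlapped for Mef2c, while the Mef2d share went from 38.2% to 43.3% to 51.6% to 54.3%.

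Against 21.3% of all genes tested, all 14 genes listed as targets of the SOX trio were called lower, with a median log2 fold change of -6.78. Of these, 13 also stand in the chondrocyte marker list, of which 16 of 16 were called lower with the same median. Col2a1, the main collagen of cartilage, had a log2 fold change of -7.20 and Acan, its large proteoglycan, one of -5.91. Comp, which links matrix proteins, had one of -5.74. Matn1, a matrilin, fell most with -12.98 and Col11a2, a fibrillar collagen chain, least with -3.39. With 13, 5 and 0 counts at 18 months Matn1 was near the floor, so the size of its fall is uncertain. It ranged from -14.12 to -8.17 in 13 other fits. Without 18-month replicate 1 the values were -7.69 for Acan, -6.86 for Comp and -14.12 for Matn1. Over all libraries Sox9, at -5.16, lay between Col11a2 and Comp, and these differences between genes were not tested.

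All 10 hypertrophy genes, several of them known targets of Runx2 or Mef2c, were called lower as well, against 21.3% of all genes tested. Their median log2 fold change was -3.58. Col10a1, the type X collagen of hypertrophic cartilage, had a log2 fold change of -5.28, and of -6.88 without 18-month replicate 1. Ibsp, a sialoprotein shared with bone, had one of -3.05. Panx3, a pannexin channel of maturing chondrocytes, fell most with -6.53. Spp1, a phosphoprotein of bone and macrophages, fell least with -1.03, at the fold limit, and its call was lost in 9 of 13 other fits. The 9 monocyte and macrophage markers summed to 27.2 to 517 CPM at 2 months and 1564 to 1661 CPM at 18 months (2 called higher, 0 lower, median log2 fold change 3.43), and their part in the Spp1 level was not tested.

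Of 18 co-regulators that work with these factors, 7 were called lower and 1 higher, with a median log2 fold change of -0.95. The shares over all genes tested were 21.3% lower and 14.9% higher. Creb3l2, a membrane-bound factor that raises secretion of matrix downstream of Sox9, had a log2 fold change of -2.71. Dlx5, a homeobox activator of hypertrophy, had one of -3.08. Foxa2 and Foxa3, forkhead factors of hypertrophic chondrocytes, had log2 fold changes of -6.19 and -4.33. Pax1, which with Pax9 induces Nkx3-2 in the embryo, was without any count at 18 months and was at least 486-fold lower there, taking 3 counts per library as the floor. Hdac9 (-1.88) and Twist1 (-1.34) were also called lower, and in limma with 1 added to FPKM Hdac9 was at -0.89 and not called. Hdac5, a class IIa deacetylase that restrains Runx2 and Mef2c, differed by -0.38 (adjusted p = 0.055), and Arid5b, a co-activator of Sox9, by -0.11 (adjusted p = 0.52). Arid5a, its relative, was the gene called higher (log2 fold change 1.81, adjusted p = 0.0085). Foxa2, Foxa3, Hdac9, Twist1 and Arid5a were named after their values had been seen.

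**Figure D5:**
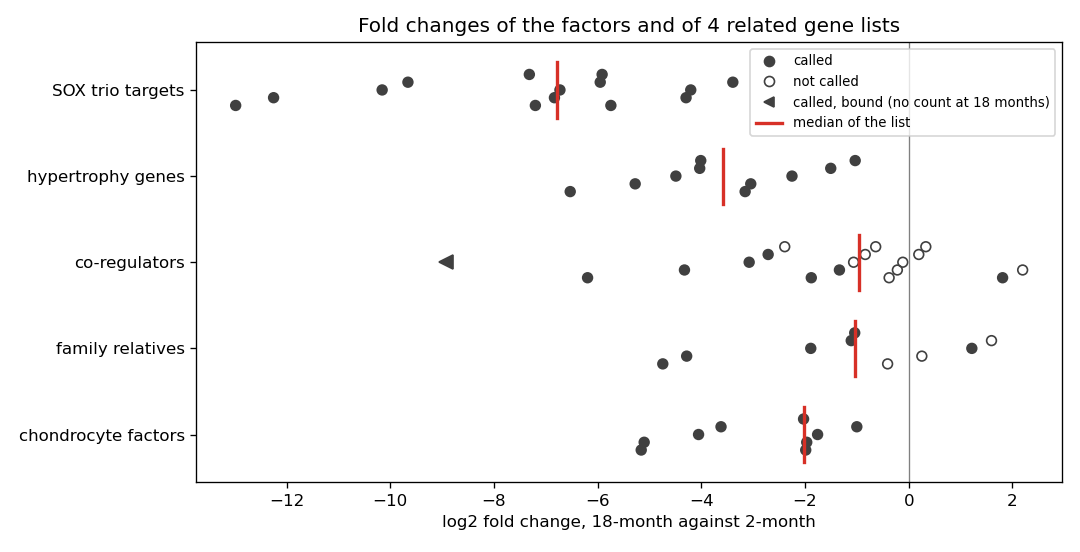
Log2 fold change, 18-month against 2-month, of each gene of the 9 factors and of 4 related gene lists, with filled points for called genes, open points for genes not called, a triangle for the bound of Pax1, and a red bar for the median of the list. All targets of the SOX trio and all hypertrophy genes lie below 0, while co-regulators and family relatives lie on both sides.

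Among the 13900 genes with a mean of at least 1 FPKM, the closest pattern over the 6 libraries differed from factor to factor. Closeness is the root mean square difference of centred log2(CPM + 0.5), where 0 is an identical pattern. The added 0.5 CPM shrinks changes of low genes by construction, most of all for Nkx3-2, with 61, 0 and 4 counts at 18 months. Foxc1 was closest to Mef2a (0.048) and Gm10516 (0.066). Sox6 was closest to Zfp788 (0.050) and Ormdl3 (0.053). Runx2 was closest to Acvr1, a bone morphogenetic protein receptor (0.065), and Tulp4 (0.078), and Runx3 to Gm527 (0.055) and Slc38a2 (0.076).

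The 4 factors that fell most and Mef2c had other neighbours. Sox9 was closest to Prelp, a small proteoglycan (0.075), and Slc38a3 (0.135), and Sox5 to Col8a2, a network collagen (0.092), and Itih2 (0.129). Trps1 was closest to Xylt1, which starts glycosaminoglycan chains (0.085), and Itga10, a collagen-binding integrin of chondrocytes (0.089). Nkx3-2 was closest to the type VI collagen genes Col6a1 (0.183) and Col6a2 (0.215), and Mef2c to Stk39 (0.117) and Prdx4 (0.123). Within the 9, the most alike were Runx3 and Foxc1 (0.132), followed by Runx2 and Foxc1 (0.175). Of the others, Sox5 and Nkx3-2 differed by 0.422 and Sox9 had no member closer than Sox5 (0.582). These values rest on 6 libraries that share an age split.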

How the data were processed

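RNA sequencing of mouse articular cartilage was analysed in 3 libraries of 2 months and 3 of 18 months, grouped by the labels. Per the methods, the libraries were made from poly(A) RNA with a strand-specific protocol. The authors deposited raw counts per gene, as whole numbers, beside FPKM values (per transcript length and library total). The submitters' processing notes name cutadapt 1.9, HISAT2 2.0.4, StringTie 1.3.4d, UMI-tools, DESeq2 and edgeR. The genome build, the annotation and the use of strand in counting are not given in the sources used here. Gene positions are those of the table, and 6 of the 9 were identical in GENCODE M21 (GRCm38). The table's Sox6 ended 7749 bases before the M21 end, Sox5 58 and Mef2c 2. A value counts all transcripts of a gene. Every library entered the analysis, and the number of per-library columns left out was 0.

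The test of the counts used edgeR 4.0.16 under R 4.3.3 (TMM, filterByExpr, quasi-likelihood test, no replicate block), with Benjamini-Hochberg adjustment over 20397 genes. Standard errors are the size of the log2 fold change over the root of its F statistic. Libraries of an age differed by at least 6.32 times the chi-square expected from counting, so each was kept as a sample. The limits of a call were those the paper uses. Ratios were compared with exact permutation tests, after adding 0.5 counts where counts were used. Alternatives were median-of-ratios size factors, total counts, no filter, DESeq2 1.42.0, limma 3.58.1 on log2(FPKM + 0.1) and log2(FPKM + 1) for a mean of at least 0.1 FPKM, a replicate block, and leaving out each library. Replicate numbers did not pair the libraries.

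The 9 factors, the 4 lists of related genes and the 10 marker lists were chosen with earlier results of these data known. Named genes are the factors, their tested relatives, the 3 most abundant and the most and least changed genes of each related list, the 2 genes nearest in pattern to each factor, and marker genes at 0 or most abundant in their list. The most abundant markers by mean FPKM were Chad, Hbb-bs, S100a9, Ly6c2, Cd79b, Nkg7, Ibsp, Mylpf, Pecam1 and Fmod. Col1a1 and the endothelial markers besides Pecam1 were named after their values had been seen. Skeletal muscle markers (7 tested, 4 called lower, 0 higher) summed to 10.8 to 59.7 CPM at 2 months and 6.10 to 7.48 CPM at 18 months, with Myh1 and Myh4 at 0 there. Of the 11 erythroid markers 3 were called higher and 0 lower (median log2 fold change 3.77). Of the 13 neutrophil markers edgeR called 0 (median 4.99; 3 higher at an unadjusted p below 0.05), DESeq2 called 11 higher and limma 13. A result that the naming rule covers is not reported here. Promoter sequences came from RefSeq, cut to the bases before the start. Python 3.11.15 with matplotlib 3.10.9 drew the figures.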

Additional observations from a re-analysis of the deposited data

How the results depend on the processing

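All 9 factors kept a negative log2 fold change in the 7 other fits with all libraries and in the 6 fits that left out 1 library. The call of Sox6 rests on the fold limit: its log2 fold change was -0.95 with median-of-ratios size factors, -0.92 with total counts, -0.97 without the filter, -0.95 in DESeq2, -0.90 in limma with 0.1 added and -0.77 with 1 added, and -1.10 to -0.91 with 1 library left out, missing the limit without 2-month replicate 1 or 3 or 18-month replicate 1. With the replicate number as a block it was -0.99, and Nkx3-2 was at -6.55 and not called (adjusted p = 0.062). The block changed the call of no other factor, and over all genes it gave 6032 calls, against 7401 without it. Same-numbered libraries did not deviate together (correlations of 0.034, 0.044 and -0.024), so the numbers were not taken as pairs. Leaving out 1 library moved the log2 fold change of Nkx3-2 between -8.33 and -4.52. The log2 difference of the Runx3 to Runx2 ratio changed sign without 2-month replicate 1 (0.04) or 3 (0.17), with a range of -0.28 to 0.17. The difference of Nkx3-2 against the chondrocyte markers changed sign without 18-month replicate 2 (0.43), with a range of -2.28 to 0.43. The cause was not tested. Of all calls, 41.2% were higher in the report's fit, 57.8% in limma with 1 added and 52.2% without 2-month replicate 2. Adding 1 to FPKM shrinks changes of low genes by construction, and Sox5 was then at -2.30, Nkx3-2 at -2.58, Trps1 at -3.06 and Sox9 at -4.49. Nkx3-2, with 61, 0 and 4 counts at 18 months, had the largest standard error of the 9 (1.50).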

Other observations

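Some genes overlap the factors or are their nearest neighbours, and their values were examined after those of the factors were known. Supt3, a subunit of a histone acetyltransferase complex on the strand opposite Runx2, shares no exonic base with it and had a log2 fold change of -1.17 (adjusted p = 0.0054). The antisense gene Runx2os1 overlaps exons of Runx2 by 519 bases and had 126 counts over all 6 libraries, with a log2 fold change of -1.31 (adjusted p = 0.046). Sox5os1 overlaps exons of Sox5 by 1330 bases and had 4 counts in all, and Gm16224 over Runx3 had 107.

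Of 18 tested protein-coding genes that are the nearest on either side of a factor, 4 were called lower and 0 higher, against 21.3% called lower over all genes tested, with a median log2 fold change of -0.22. These were Bcat1, an enzyme of branched-chain amino acid breakdown, 212 kb from Sox5 (log2 fold change -3.35), Sybu, 5867 kb from Trps1 (-3.36), the forkhead gene Foxf2, 175 kb from Foxc1 (-1.72), and the chloride channel gene Clic4, 36.0 kb from Runx3 (-1.21).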
